A study of Mus musculus with 24 samples.

Results

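The genes described here are the 5 lysyl oxidases (Lox, Loxl1, Loxl2, Loxl3 and Loxl4) and 5 genes of elastic fibres, namely elastin (Eln), the fibrillins (Fbn1, Fbn2) and the microfibril-associated glycoproteins Mfap2 and Mfap5. They were taken by symbol from the gene count table, which holds 55401 genes, and all 10 were found and tested. The study asked how a severe burn changes the skeletal muscle transcriptome of young and of adult mice. Poly-A RNA and small RNA of the gastrocnemius, a mixed-fibre calf muscle that was not itself burned, were sequenced from 12 male C57BL6 mice. Young mice arrived at 4 weeks and adults at 10 weeks, so that after acclimation they were 5 and 11 weeks old. A young burn (YB) and an adult burn (AB) group of 3 mice each had a full-thickness scald over 25% of the body surface under isoflurane and buprenorphine, with saline and Ringer's lactate, and muscle was taken 24 h later. A young sham (YS) and an adult sham (AS) group, also of 3 mice each, had the anaesthetic and the analgesic but neither scald nor resuscitation, so the effects of these cannot be told apart. The labels name no transgene or deletion.

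Elastic fibres let a tissue stretch and recoil. Elastin monomers are laid onto a scaffold of fibrillin microfibrils, to which the microfibril-associated glycoproteins bind, and lysyl oxidases, which are copper enzymes, then oxidise lysines so that elastin and collagen chains become crosslinked. Most elastin is made during growth, and in muscle these fibres lie in the connective tissue sheaths, in vessel walls and in tendon rather than in the myofibres.

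The mRNA libraries held 4392605 to 5688512 counts each. Levels are given as CPM (counts divided by the TMM-scaled library total, times 1000000), and genes are said to be called where edgeR's quasi-likelihood test gave an adjusted p below 0.05 among the 12408 genes that passed the filter on low counts. The p-values set differences of group means against a spread between mice that was estimated over all groups in the fit. The myofibre markers summed to between 80640 and 159500 CPM in the 12 libraries, none of the 7 was at 0, and the muscle label was met. Young burn replicate 2 stood apart. Its mean absolute log2 difference from its group mates was 0.505, against 0.267 to 0.386 for the other libraries, and its levels of Egln3, an oxygen-dependent prolyl hydroxylase that low oxygen induces, and of the lysosomal protease Ctsl were 623.7 and 885 CPM, against at most 103.8 and 350.8 CPM elsewhere. The study left a young burn animal out of a heat map as an outlier without naming it in the legend. The counts of the 10 genes called are therefore also given without young burn replicate 2, as are the counts given for other lists where they moved by over 1.5 times.

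Among the uninjured mice, some of the genes were at a higher level in the young. In YS against AS, 4 of the 10 genes were called (Loxl2, Eln, Fbn2 and Mfap2), all higher in young muscle, where 3.76% of all tested genes were called and 1.92% were called as higher. The count was 6 without young burn replicate 2, Lox and Mfap5 being added, against 11.8% of all genes called and 5.27% called as higher. It was 1 (Fbn2) when adult sham replicate 2 was left out, and 2 when adult sham replicate 1 or young sham replicate 3 was. Fbn2 passed the filter on low counts only through its young libraries, so its call is not independent of its high level there. The median log2 difference of the 10 genes was 0.85, beside 0.01 over all tested genes. The libraries of the sham groups did not overlap for 6 genes, all higher in the young, and 15.7% of all tested genes were separated in that direction.

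**Figure D1:**
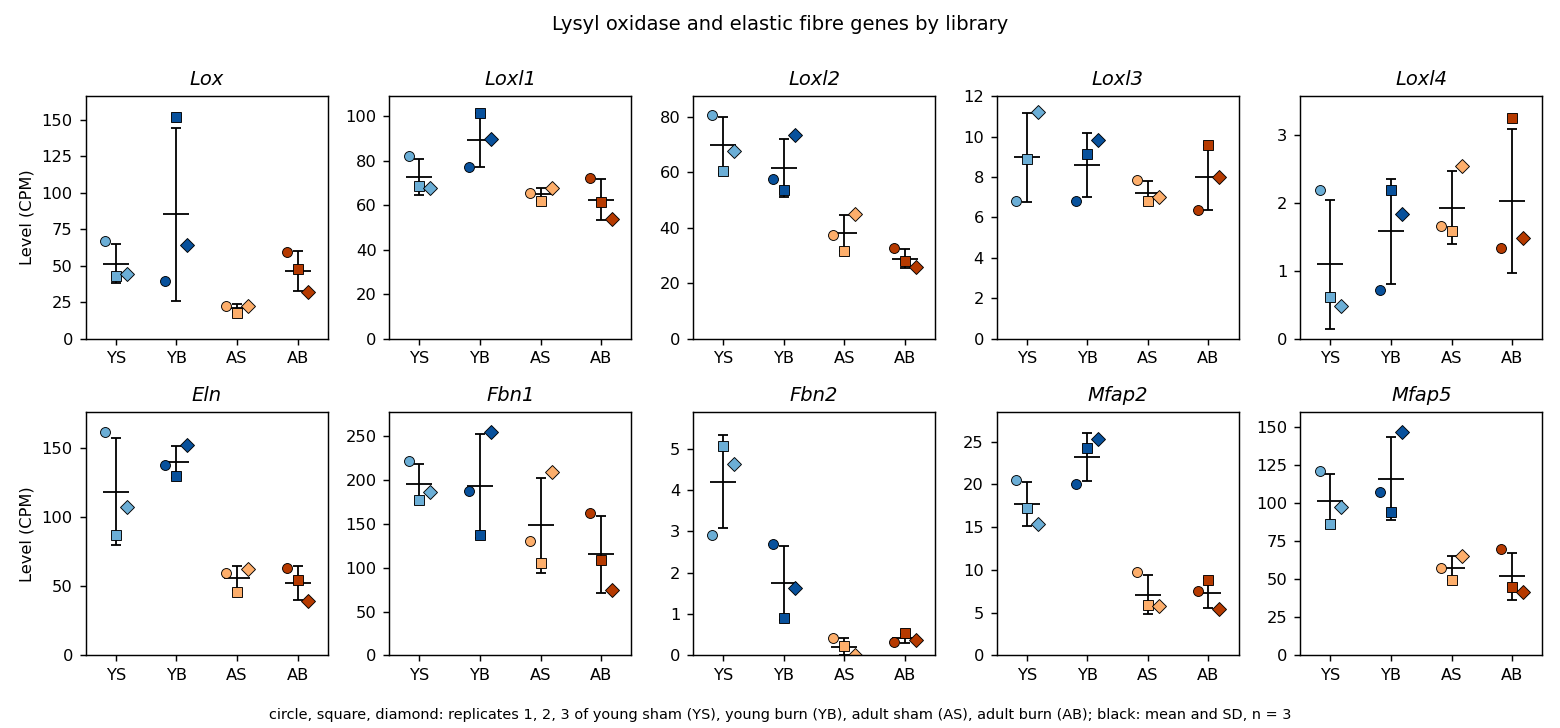
Level of each gene (CPM, linear axis from 0) in every library, by group (YS and AS, sham; YB and AB, burn; young before adult); symbols are replicates, bars the mean and SD of 3 mice. Eln, Mfap2, Mfap5, Loxl2 and Fbn2 lie higher in every young than in every adult library, while Lox is lowest in adult sham and has its highest value, 151.9 CPM, in young burn replicate 2.

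Lox, the founding enzyme of the family, stood at 67.2, 43.1 and 44.1 CPM in young sham mice and at 22.1, 17.7 and 22.7 CPM in adult sham mice. The lowest young value thus lay well above the highest adult value. The difference was 2.46-fold (log2 1.30 ± 0.41, SE) with an adjusted p of 0.0912, which misses the threshold. Without young burn replicate 2, whose Lox level enters the shared estimate of spread, the difference was log2 1.29 ± 0.25 with an adjusted p of 0.00461.

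Loxl2, a family member that acts on collagen IV of basement membranes, stood at 80.6, 60.4 and 67.8 CPM in young sham and at 37.4, 31.7 and 44.8 CPM in adult sham. Again all the young libraries were above all the adult ones. The level was 1.83-fold higher in the young (log2 0.87 ± 0.17, adjusted p = 0.0144; 0.00261 without young burn replicate 2). Loxl1, the member tied to elastin upkeep, was at 67.5 to 82.1 CPM in young sham and 61.9 to 67.7 CPM in adult sham, ranges that overlapped narrowly, and was not called (log2 0.16 ± 0.14, adjusted p = 0.564). Loxl3 stood at 6.82 to 11.2 CPM in young sham and 6.80 to 7.86 CPM in adult sham and was not called. Loxl4 was near the limit of detection, with 14 counts over the young sham and 27 over the adult sham libraries, a ratio of 0.551 with an exact Poisson 95% interval of 0.267 to 1.09 that covers counting error only.

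Eln, which encodes the elastic core protein itself, was measured at 161.2, 86.7 and 107 CPM in young sham mice and at 59.4, 45.8 and 62.6 CPM in adult sham mice. Young sham replicate 1 was the highest of these libraries, and the groups did not overlap. Eln was 2.11-fold higher in the young (log2 1.08 ± 0.22, adjusted p = 0.0192; 0.00536 without young burn replicate 2).

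The fibrillins differed from each other. Fbn1, the main adult fibrillin, stood at 221.9, 177.8 and 186.7 CPM in young sham and at 130.5, 105.4 and 209.6 CPM in adult sham. Adult sham replicate 3 fell within the young range, and Fbn1 was not called (log2 0.40 ± 0.30, adjusted p = 0.491). Fbn2, the fibrillin of embryonic and early postnatal microfibrils, had 12, 25 and 19 counts in the young sham libraries but 2, 1 and 0 in the adult sham libraries. This was the widest age difference among the 10 genes, a ratio of 19.8 at equal depth with a Poisson 95% interval of 6.45 to 99.05 (adjusted p = 0.00411; 0.000634 without young burn replicate 2). On 3 adult counts the size of that ratio is loosely known. Its passing of the filter on low counts rested on young libraries, as no adult library held over 3 counts.

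Mfap2, which sits on microfibrils and binds growth factors of the TGF-beta and BMP families, was at 20.5, 17.2 and 15.4 CPM in young sham and at 9.72, 5.89 and 5.73 CPM in adult sham. The groups were separated, and the level was 2.47-fold higher in the young (log2 1.31 ± 0.24, adjusted p = 0.0111; 0.00301 without young burn replicate 2). Mfap5, its paralogue, was at 121.3, 86.3 and 97.3 CPM in young sham and at 57.7, 49.4 and 65.1 CPM in adult sham. The groups did not overlap here either, but the adjusted p was 0.0523 (log2 0.82 ± 0.22), and it was 0.0142 without young burn replicate 2.

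Per kilobase of exon the order of the levels also differed between the ages. In young sham muscle Mfap5 came first at 28.3 CPM per kb, ahead of Loxl1 at 22.1, Fbn1 at 16.1, Eln at 14.6, Mfap2 at 14.6, Loxl2 at 12.9 and Lox at 10.8 CPM per kb. In adult sham muscle Loxl1 came first at 19.7 CPM per kb, ahead of Mfap5 at 16.0, Fbn1 at 12.2, Loxl2 at 7.03, Eln at 6.90, Mfap2 at 5.87 and Lox at 4.36 CPM per kb. Several neighbours in these orders overlapped between libraries, among them Fbn1, Eln and Mfap2 in the young and Loxl2, Eln and Mfap2 in the adult, whereas Loxl1 lay above Mfap5 in each adult sham library. Loxl3, Loxl4 and Fbn2 came last, at no more than 2.44 CPM per kb in any library.

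The burned mice showed a like age difference. In YB against AB, 6 of the 10 genes were called (Loxl1, Loxl2, Eln, Fbn2, Mfap2 and Mfap5), all higher in young burned muscle, where 10.8% of all tested genes were called and 5.98% were called as higher. The count was 7 without young burn replicate 2, Fbn1 being added, against 20.7% of all genes called and 11.2% called as higher. The median log2 difference of the 10 genes was 0.98, beside 0.02 over all genes. The libraries did not overlap for the same 6 genes, and 15.7% of all genes were separated in that direction.

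Eln stood at 137.4, 129.6 and 152.3 CPM in young burn mice and at 63.2, 54.4 and 39.0 CPM in adult burn mice. Every young burn value was more than that of every adult mouse, burned or not. The difference was 2.67-fold (log2 1.42 ± 0.22, adjusted p = 0.00279; 0.000732 without young burn replicate 2).

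Mfap2 was at 20.1, 24.3 and 25.3 CPM in young burn and at 7.55, 8.86 and 5.38 CPM in adult burn. It was 3.18-fold higher in the young (log2 1.67 ± 0.22, adjusted p = 0.00108), with no overlap. Mfap5 was at 107.3, 94.6 and 146.7 CPM against 69.8, 45.0 and 41.6 CPM, a 2.23-fold difference (log2 1.15 ± 0.22, adjusted p = 0.0071). Both glycoproteins therefore lay higher in the young after burn in all libraries.

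Loxl2 stood at 57.7, 53.7 and 73.4 CPM in young burn and at 32.7, 27.8 and 26.0 CPM in adult burn, 2.13-fold higher in the young (log2 1.09 ± 0.17, adjusted p = 0.0026). Loxl1 was at 77.1, 101.5 and 89.7 CPM in young burn and at 72.1, 61.6 and 53.7 CPM in adult burn. The groups were separated by a narrow gap, with a log2 difference of 0.52 ± 0.14 (adjusted p = 0.033; 0.0387 without young burn replicate 2). With only these groups in the fit the adjusted p of Loxl1 was 0.111.

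Fbn2 had 15, 5 and 8 counts in young burn and 2, 3 and 2 counts in adult burn, a ratio of 4.23 with a Poisson 95% interval of 1.81 to 11.5 (adjusted p = 0.0404). Leaving out single libraries took its adjusted p past the threshold, up to 0.143 without young burn replicate 1. Here too Fbn2 had entered the test through its young libraries. Fbn1 stood at 188.1, 137.3 and 254.9 CPM in young burn and at 162.3, 109.0 and 74.1 CPM in adult burn, so the groups overlapped, at an adjusted p of 0.121 (log2 0.75 ± 0.30). Without young burn replicate 2, the lowest of its group, Fbn1 was called at log2 0.95 ± 0.28 and an adjusted p of 0.0273.

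Lox was at 39.4, 151.9 and 64.4 CPM in young burn and at 59.5, 48.1 and 32.1 CPM in adult burn. The groups overlapped, and the log2 difference of 0.87 ± 0.38 (adjusted p = 0.15) shrank to 0.15 ± 0.25 (adjusted p = 0.693) without young burn replicate 2. Loxl3 (6.81 to 9.81 against 6.37 to 9.58 CPM) and Loxl4 (25 against 34 counts) were not called.

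**Figure D2:**
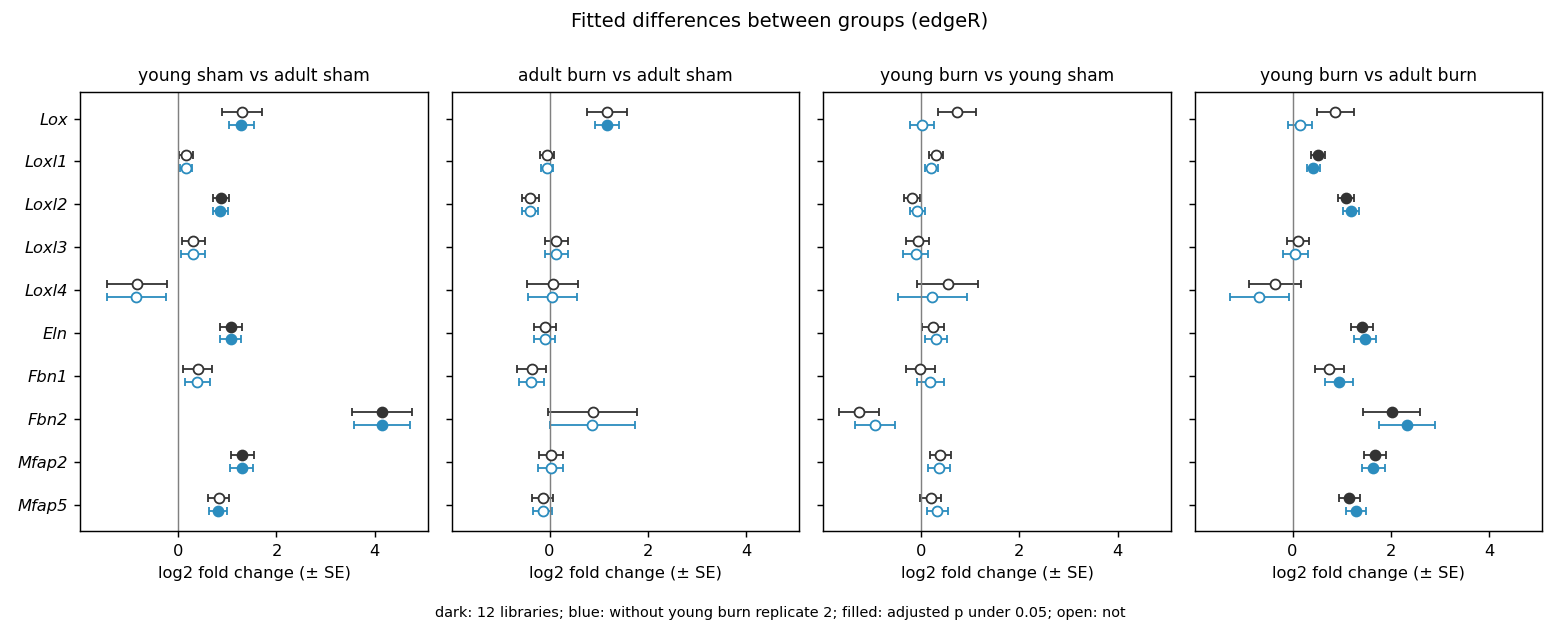
Fitted log2 fold changes (horizontal axis, ± SE) of the 10 genes in the comparisons YS against AS, AB against AS, YB against YS and YB against AB, from all 12 libraries (dark) and without young burn replicate 2 (blue); filled points have an adjusted p under 0.05. Filled points lie to the right of 0 in the age comparisons (4 and 6 genes with 12 libraries), while in the burn comparisons the only filled point is Lox in adult mice without young burn replicate 2.

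Within either age few of these genes were called after burn. Few of all tested genes were called as well, so a lack of calls does not show a lack of change. In AB against AS, 0 of the 10 genes were called with 12 libraries by edgeR or by DESeq2, with 2 (Lox and Loxl2) at an unadjusted p under 0.05, and 0.00806% of all genes were called. When young burn replicate 2 was left out, 1 gene, Lox, was called as higher, against 0.909% of all genes called and 0.561% called as higher. Lox stood at 59.5, 48.1 and 32.1 CPM in adult burn mice and at 22.1, 17.7 and 22.7 CPM in adult sham mice. All the burned adults were above all the adult shams, and Lox was the only 1 of the 10 genes so separated, as were 10.3% of all tested genes. The difference was 2.24-fold with 12 libraries (log2 1.16 ± 0.40, adjusted p = 0.627) and log2 1.16 ± 0.24 with an adjusted p of 0.0377 without young burn replicate 2. With only the adult libraries in the fit the adjusted p was 0.0274. Neither alternative changes the adult libraries themselves.

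The other genes did not follow Lox in adult burn. Loxl2 stood at 32.7, 27.8 and 26.0 CPM after burn against 37.4, 31.7 and 44.8 CPM after sham (log2 -0.40 ± 0.17, adjusted p = 0.698; 0.263 without young burn replicate 2), with a slight overlap. Eln had a log2 difference of -0.10 ± 0.22, Fbn1 of -0.37 ± 0.30, Mfap2 of 0.03 ± 0.25 and Mfap5 of -0.14 ± 0.22. The median over the 10 genes was -0.02, beside 0.00 over all genes. Fbn2 had 7 counts after burn and 3 after sham, a ratio of 1.93 with an interval of 0.441 to 11.6, which could not be told from equal levels at this depth.

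In YB against YS, 0 of the 10 genes were called by edgeR or DESeq2, with 12 libraries or without young burn replicate 2, and 1 gene, Fbn2, had an unadjusted p under 0.05 in each edgeR fit. Of all genes, 0.0645% were called with 12 libraries and 0.664% without young burn replicate 2. Fbn2 had 15, 5 and 8 counts after burn against 12, 25 and 19 after sham. As a level this was 2.69, 0.913 and 1.64 CPM against 2.92, 5.06 and 4.63 CPM, so that the groups were just separated, as were 11.2% of all genes in that direction. The ratio was 0.412 (Poisson 95% interval 0.252 to 0.660), and the test across mice gave an adjusted p of 0.125 (0.275 without young burn replicate 2).

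Lox stood at 39.4, 151.9 and 64.4 CPM in young burn and at 67.2, 43.1 and 44.1 CPM in young sham. The high value belonged to young burn replicate 2, and the others lay within or below the sham range. The log2 difference was 0.73 ± 0.38 (adjusted p = 0.293) with 12 libraries and 0.02 ± 0.25 (adjusted p = 0.979) without that library. Young burn replicate 2 also held 832 of the 1367 Lox counts of its group, beside its high Egln3 and Ctsl levels. Of the 12 genes of a low oxygen list, 4 (Egln3, Bnip3, Slc2a1 and P4ha1) had their highest level of all libraries in young burn replicate 2 and 5 (Vegfa, Pdk1, Egln1, Ankrd37 and Car9) their lowest. The part of a low oxygen response in the Lox level was not tested.

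Eln (log2 0.24 ± 0.22), Mfap2 (0.39 ± 0.21), Mfap5 (0.19 ± 0.21) and Loxl1 (0.30 ± 0.14) had positive values after burn in the young. The lowest adjusted p among them was 0.256, of Loxl1. Fbn1 stood at -0.02 ± 0.30 and Loxl2 at -0.18 ± 0.16 on the same scale, and neither was called.

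Whether burn acted differently at the ages was tested by the interaction term. None of the 10 genes was called in it, 0 by edgeR and 0 by DESeq2, with 0 at an unadjusted p under 0.05 among the 10 genes and 893 among all 12408. The share of all genes called was 0% with 12 libraries and 0.0949% without young burn replicate 2. For Lox the young response minus the adult response was log2 -0.43 ± 0.55 with 12 libraries. Leaving out young burn replicate 2 gave -1.14 ± 0.35, at an unadjusted p of 0.00552 and an adjusted p of 0.299. The Lox call in burned adults is therefore not shown to be particular to adults. For Fbn2 the term was -2.14 ± 1.00 (adjusted p = 0.684), which rests on 3 adult sham and 7 adult burn counts.

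The make-up of the lysyl oxidase family differed between groups. Per kilobase, Loxl1 supplied the largest share of the 5 transcripts in 11 of the 12 libraries, while Lox did so in young burn replicate 2. Lox made up 13.8%, 12.3% and 13.3% of the family in adult sham and 29.6%, 27.4% and 22.5% in adult burn. In young sham it made up 25.2%, 20.9% and 20.6%, and in young burn 18.8%, 42.4% and 23.7%. The adult sham shares were thus the lowest of all and did not overlap the young sham or adult burn shares. Loxl1 made up 59.7% ± 2.34 (SD, n = 3) in adult sham and 52.4% ± 1.84 in adult burn, 46.2% ± 1.97 in young sham and 47.4% ± 6.09 in young burn. The level of Loxl1 itself had an edgeR log2 difference of -0.06 ± 0.14 in AB against AS (adjusted p = 0.95). The share of Loxl2 was 21.1% ± 1.92 in adult sham, 14.8% ± 1.11 in adult burn, 26.9% ± 1.07 in young sham and 20.5% ± 6.27 in young burn. Of the 20 share comparisons made, none can go below p = 0.1 in a two-sided exact permutation test of 3 against 3. That value was reached in 8, for Lox, Loxl1 and Loxl2 in both YS against AS and AB against AS, for Loxl2 in YB against YS and for Loxl4 in YS against AS.

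**Figure D3:**
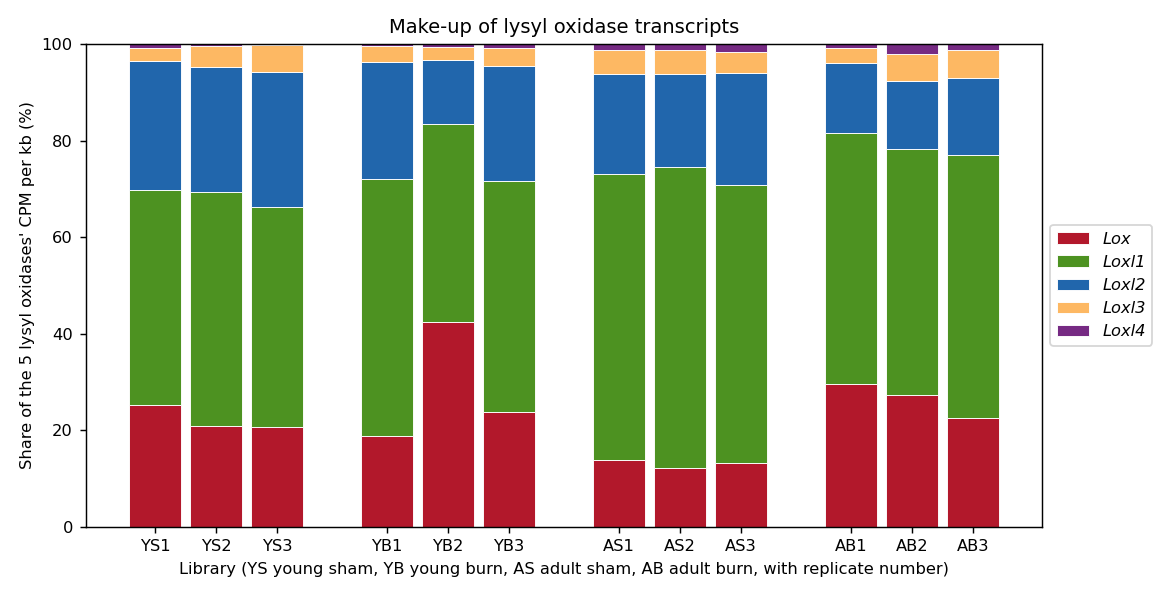
Share (%) of each of the 5 lysyl oxidases in their summed CPM per kb of exon, stacked to 100% for each library; Y and A mark young and adult, S and B sham and burn, followed by the replicate number. The red Lox part spans 12.3% to 13.8% in adult sham, 22.5% to 29.6% in adult burn and reaches 42.4% in young burn replicate 2.

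The miR-29 family is a group of small RNAs known to repress messages of elastin, fibrillins and collagens by pairing of their seed, bases 2 to 8, with 3′ untranslated regions. The mature sequences from the RefSeq table are shown because all have the same seed, given in capitals:

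mmu-miR-29a-3p: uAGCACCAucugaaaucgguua

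mmu-miR-29b-3p: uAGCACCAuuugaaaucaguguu

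mmu-miR-29c-3p: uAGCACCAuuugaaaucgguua

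On GRCm38 miR-29a-3p lies at chr6:31062673-31062694 and a miR-29b-3p copy at chr6:31063025-31063047, both on the minus strand. The other miR-29b-3p copy lies at chr1:195037091-195037113 and miR-29c-3p at chr1:195037600-195037621, both on the plus strand.

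The miRNA table held 4 entries of this family, all of which were lower in the young in both age comparisons. Mir-29a stood at 788.3, 905.7 and 759.1 CPM of miRNA counts in young sham and at 3603, 3735 and 3240 CPM in adult sham. It was 4.31-fold lower in the young (log2 -2.11 ± 0.11, adjusted p = 1.66e-10). The log2 differences of the mir-29b entries were -1.74 ± 0.19 and -1.66 ± 0.18, and that of mir-29c was -1.63 ± 0.16. In YS against AS 56.2% of the 299 miRNA entries tested were called and 25.4% were called as lower, so such a call was common among miRNAs. In YB against AB, mir-29a was at 767.2, 852.6 and 797.9 CPM against 3138, 3497 and 3335 CPM (log2 -2.04 ± 0.11, adjusted p = 2.64e-10), where 55.2% of all entries were called and 25.4% were called as lower. All 4 were lower in both comparisons also without young burn replicate 2, where 55.4% and 49.4% of the entries were called, 25.3% and 23.4% as lower. Within either age 0 of the 4 entries were called after burn by edgeR or DESeq2, with 0 at an unadjusted p under 0.05, and the share of all entries called by edgeR was 0%. For mir-29a the differences were log2 -0.09 ± 0.11 in adults and -0.02 ± 0.11 in the young. Of the mir-29b entries, the libraries of the second did not overlap in adults, at 85.8, 64.6 and 65.5 CPM after burn against 61.6, 60.5 and 57.1 CPM after sham. By edgeR that difference was log2 0.27 ± 0.16, at an unadjusted p of 0.103 and an adjusted p of 0.712. The share of all miRNA entries so separated is not given here, so the separation alone is not read as a change. The 2 mir-29b entries carry the same name and the 2 genomic copies give the same mature sequence, and no source used here says how reads mapping to both were divided.

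**Figure D4:**
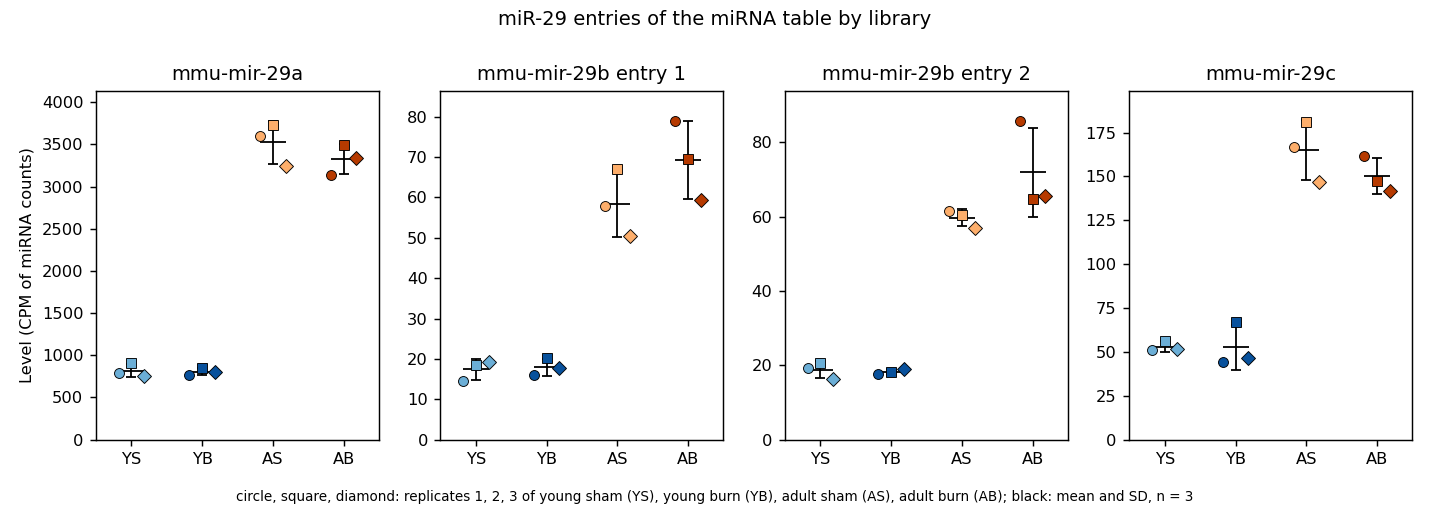
Level of the 4 miR-29 entries (CPM of miRNA counts, linear axes from 0) in every miRNA library; symbols are replicates, bars the mean and SD of 3 mice. In each entry both young groups lie below both adult groups, for mir-29a at 759.1 to 905.7 against 3138 to 3735 CPM. Sham and burn overlap in each entry except 1 mir-29b entry in adults, at 64.6 to 85.8 CPM after burn against 57.1 to 61.6 CPM after sham. That difference was not called by edgeR (adjusted p = 0.712).

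The 7 letters that pair with this seed, TGGTGCT, were sought on the transcript strand in the longest annotated 3′ untranslated region of each gene (Gencode M21, GRCm38). They occurred in 8 of the 10 genes, 15 times in all, and in 13.1% of 20997 protein-coding genes. Eln and Lox had 3 matches each, Loxl2, Fbn1 and Mfap5 had 2, Loxl4, Fbn2 and Mfap2 had 1, and Loxl1 and Loxl3 had 0. Among regions of similar length, the share with a match was 12% for Eln, 4.4% for Mfap2, 8.98% for Mfap5, 9.77% for Fbn1, 24.4% for Loxl2 and 27.2% for Lox. The match in Fbn2, also a fibrillin, is not shown. Those in elastin and in the microfibril genes Fbn1, Mfap2 and Mfap5, which encode the fibre and part of its scaffold, follow with the 7 letters in capitals:

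Eln, chr5:134703729-134703757, minus strand: gacctcatcaacgtTGGTGCTactgcttg

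Eln, chr5:134703482-134703510, minus strand: tctccaagggaaatTGGTGCTacatgttg

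Eln, chr5:134703469-134703497, minus strand: ttggtgctacatgtTGGTGCTtcttcttt

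Fbn1, chr2:125301166-125301194, minus strand: ttctgttgtctgttTGGTGCTagtaaatt

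Fbn1, chr2:125300916-125300944, minus strand: gtgagggtttgtaaTGGTGCTtattaaga

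Mfap2, chr4:141015632-141015660, plus strand: ggccctgcctgaccTGGTGCTttctcccc

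Mfap5, chr6:122528561-122528589, plus strand: actctaattttcacTGGTGCTggtaacgt

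Mfap5, chr6:122528784-122528812, plus strand: atattttttttaaaTGGTGCTatgaattg

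The last pair of Eln windows overlap, the earlier match being repeated in small letters in the later window. A match describes letters and is no shown binding site. With 12 libraries, called genes with a match (Eln, Loxl2, Fbn2 and Mfap2, and Mfap5 in YB against AB) and without a match (Loxl1, in YB against AB) both occurred. Lox, Fbn1 and Loxl4, with a match, and Loxl3, without a match, were called in neither age comparison. Without young burn replicate 2, Lox was called in YS against AS and Fbn1 in YB against AB. The part of miR-29 in the levels of the 10 genes was not tested.

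The genes that work with these products showed the same age difference in part. Of the 22 genes of elastic fibre assembly, 18 were tested. In YS against AS 2 were called, both higher in the young: Mfap4, a glycoprotein that binds elastin and collagen (log2 1.73 ± 0.36), and Adamts10, a protease that binds fibrillin (0.65 ± 0.13). In YB against AB 4 were called, all higher: Adamts10 (0.82 ± 0.13), Mfap4 (2.26 ± 0.39), Adamtsl2 (1.23 ± 0.24), and Fbln5, which brings elastin to microfibrils (0.65 ± 0.17). The count was 10, all higher, without young burn replicate 2 (8 by DESeq2), with Ltbp1, Ltbp4, Emilin2, Fbln7, Adamtsl4 and Fn1 added. The median of the list was 0.21 and 0.42 on the log2 scale in these comparisons, below that of the 10 genes. In AB against AS and in YB against YS, 0 were called by edgeR or DESeq2, with 2 and 1 at an unadjusted p under 0.05.

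The fibrillar collagens, the other substrate of lysyl oxidases, differed more widely. All 8 were tested, and 7 were called as higher in the young in each age comparison, at medians of log2 1.48 and 1.60. Col1a1, a chain of type I collagen, stood at 1556, 1569 and 2122 CPM in young sham against 393.9, 254.5 and 476.8 CPM in adult sham (log2 2.22 ± 0.25, adjusted p = 0.000877). Col3a1, of the more extensible type III collagen, was higher by log2 1.74 ± 0.26 in YS against AS and by 2.34 ± 0.26 in YB against AB. By edgeR 0 of the 8 were called in AB against AS and in YB against YS (2 and 4 had an unadjusted p below 0.05), and the DESeq2 counts were 0 and 1.

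Among 14 genes that process procollagen or lysyl oxidase, 12 were tested. In YS against AS 3 were called as higher in the young: the procollagen N-proteinase Adamts2 (log2 0.81 ± 0.14), the lysyl hydroxylase Plod2 (1.07 ± 0.24) and Bmp1 (0.55 ± 0.13), which cleaves the propeptide of Lox as well as that of procollagen. In YB against AB 7 were called, all higher, among them Adamts2 (1.24 ± 0.14), Plod1 (0.80 ± 0.11), Plod2 (1.11 ± 0.23) and Postn (2.12 ± 0.44). The YS against AS count was 6 without young burn replicate 2, all higher, Pcolce, Serpinh1 and Postn being added. Tll1, a Bmp1-like protease, and Plod1 were called as higher in YB against YS without young burn replicate 2 (2.41 ± 0.49 and 0.54 ± 0.11).

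The copper supply genes handle copper, the metal of lysyl oxidases, in the cell. Of 5 tested, 0 were called in YS against AS by edgeR or DESeq2 (3 at an unadjusted p under 0.05). The transporter Slc31a2 had a log2 value of -0.60 ± 0.17 in YB against AB that edgeR called (adjusted p = 0.0422). DESeq2 did not call it, nor did edgeR without young burn replicate 2 (-0.53 ± 0.19, adjusted p = 0.0569). In YS against AS the copper pump Atp7a was called as lower without that library by edgeR (-1.55 ± 0.48) and not by DESeq2. Of 6 tested proteases that can degrade elastin, the membrane-bound Mmp14 was higher in the young in both age comparisons (0.67 ± 0.17 and 0.89 ± 0.16) and Ctsk, a cathepsin with strong elastase activity, in YB against AB (0.83 ± 0.19). Without young burn replicate 2 the YB against AB count was 4, Mmp2 being added as higher and Mmp9 as lower. In YB against YS all 6 had positive values, and edgeR called 0 and DESeq2 2 with 12 libraries. There 5 had an unadjusted p under 0.05 by edgeR, and 1 without young burn replicate 2, where DESeq2 called 1. In AB against AS 0 were called by edgeR or DESeq2 with 12 libraries, with 1 at an unadjusted p under 0.05. Of 15 genes of TGF-beta signalling, a pathway that induces elastin and Lox, 0 were called in YS against AS by edgeR or DESeq2 (2 at an unadjusted p under 0.05), and Ccn1 was called as lower in YB against AB (-0.59 ± 0.17). That call was lost without young burn replicate 2, where Smad4 was called as lower and Tgfb2 and Tgfbr2 as higher. Smad3 was lower in AB against AS (-0.83 ± 0.15) and the receptor Tgfbr2 higher in YB against YS (0.57 ± 0.11) without young burn replicate 2. Of 12 genes of the low oxygen response, in which Lox is a known target, edgeR called 0 with 12 libraries in YS against AS, AB against AS, YB against YS and YB against AB, with 2, 1, 5 and 2 reaching an unadjusted p below 0.05, and the DESeq2 counts were 0, 0, 2 and 1. Without young burn replicate 2, Egln3 was higher after burn in adults (0.99 ± 0.19) and in the young (1.38 ± 0.23), Egln3 and Bnip3 were lower in YS against AS, and Bnip3 was lower in YB against AB.

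Markers of cell types that make these proteins were compared as well. The 8 fibroblast markers summed to 2617 to 3166 CPM in young sham and 2251 to 2602 CPM in adult sham, and to 3108 to 3666 CPM in young burn and 2370 to 2838 CPM in adult burn. With 12 libraries 0 of the 8 were called in YS against AS by edgeR or DESeq2 (3 at an unadjusted p under 0.05). In YB against AB 3 were called, Lum, Col15a1 and Cd34, all higher in the young. Of all tested genes 10.8% were called there, 5.98% as higher. The fibroblast marker counts were 1 (Col15a1) and 5 without young burn replicate 2, all higher in the young. Ly6a was then called as higher in YB against YS. Of all genes, 11.8% were then called in YS against AS and 20.7% in YB against AB. The smooth muscle and pericyte markers summed to 998 to 1195 CPM in young sham against 942 to 968 CPM in adult sham, and to 912 to 1321 CPM in young burn against 736 to 780 CPM in adult burn. Of 7 tested, Myh11, a myosin that defines mature smooth muscle, was lower in young sham (log2 -0.62 ± 0.15), and Pdgfrb and Rgs5 were higher in YB against AB. Pdgfrb was called as higher in YS against AS as well without young burn replicate 2, 4 were called as higher in YB against AB, and Smtn was lower in AB against AS. The endothelial markers ranged from 361.5 to 480.5 CPM in young sham and from 347.6 to 376.6 CPM in adult sham, with 0 of 7 called by edgeR or DESeq2 (2 at an unadjusted p under 0.05), and in YB against AB 2 of 7 were called as higher (Cdh5 and Emcn), 4 without young burn replicate 2, where Kdr was lower in AB against AS and Vwf higher in YB against YS.

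Tendon markers summed to 247.0 to 312.8 CPM in young sham, 108.2 to 170.7 CPM in young burn, 97.9 to 253.9 CPM in adult sham and 86.8 to 164.2 CPM in adult burn. Of the 8, Kera and Cilp2 were called as higher in YS against AS. In YB against YS edgeR called 0 with 12 libraries (7 of them reached an unadjusted p below 0.05), while by DESeq2 the count was 6, and Chad, Kera and Cilp2 were lower without young burn replicate 2, at log2 values of -2.09, -2.06 and -1.30. In AB against AS 0 were called by edgeR or DESeq2 with 12 libraries, with 6 at an unadjusted p under 0.05. DESeq2 called 2 there without young burn replicate 2. The median log2 value with 12 libraries was -1.53 in YB against YS and -0.90 in AB against AS. In each of these burn comparisons 0 of the 8 were positive. No marker of the fibroblast, smooth muscle, endothelial or tendon lists was at 0 throughout a group. The part of tissue make-up in the age differences was not tested, and in whole muscle fewer cells of a type and less RNA per cell cannot be told apart. The macrophage markers summed to 272.5 to 434.1 CPM in young burn, above the 152.9 to 200.9 CPM of young sham. In adult burn they summed to 180.8 to 255.4 CPM, above the 148.7 to 175.8 CPM of adult sham. EdgeR called 4 of 6 as higher in YB against AB. With 12 libraries it called 0 in YB against YS and in AB against AS, where 6 and 2 had an unadjusted p under 0.05. The DESeq2 counts were 6 and 0. Without young burn replicate 2, edgeR called 2 (C1qa and C1qb) as higher in YB against YS. Cartilage and keratinocyte markers summed to at most 7.31 and 10.9 CPM in any library, 3 of the 4 keratinocyte markers being at 0 in each group, neutrophil markers to between 1.42 and 27.0 CPM and adipocyte markers to between 516.5 and 1206 CPM.

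**Figure D5:**
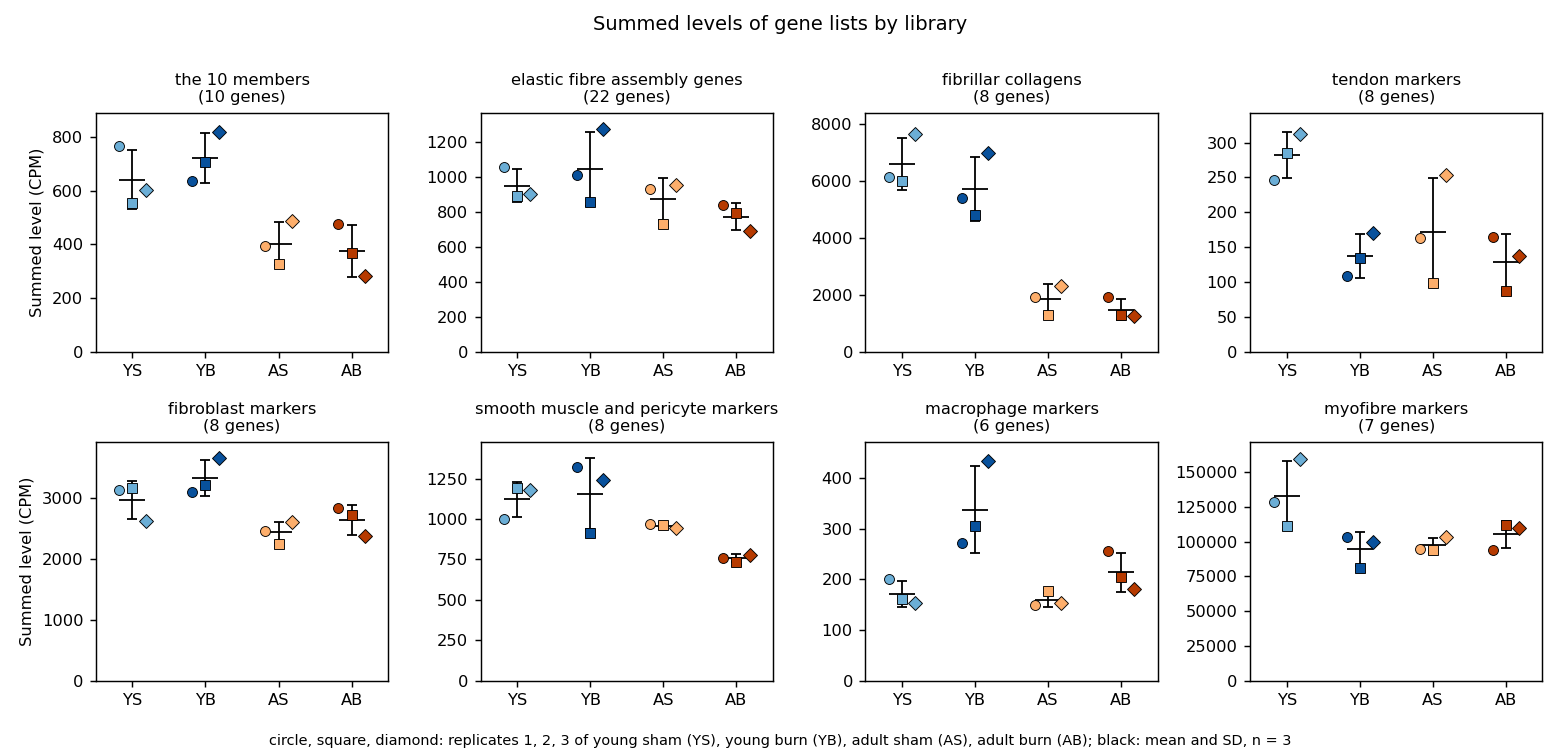
Summed level (CPM, linear axes from 0) of the 10 genes and of 7 other gene lists in every library; symbols are replicates, bars the mean and SD of 3 mice. The 10 genes and the fibrillar collagens are higher in both young groups, at 554.9 to 820 CPM against 281.6 to 487.6 CPM for the 10 genes, while the tendon markers are highest on average in young sham and overlap between the other groups.

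The genes with the profile most like that of Eln, by the mean absolute difference of centred log2 CPM over 12 libraries among 9920 protein-coding genes, were Col5a2 (0.14), Adamts2 (0.17), Grb10 (0.18), Snn (0.18) and Col4a1 (0.19). Col5a2, Adamts2 and Grb10 were also among the 5 nearest without young burn replicate 2. The profile of Lox had no such near neighbours, with values of 0.33 for Runx1 and 0.33 to 0.37 for the next 4 genes (Taf7, Trafd1, Usp20 and Ccdc77), and none of them was among the 5 nearest without young burn replicate 2.

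On GRCm38 the genes lie apart on chromosomes 2 (Fbn1, chr2:125300594-125507993), 4 (Mfap2, chr4:141010418-141015984), 5 (Eln, chr5:134702593-134747323), 6 (Loxl3, chr6:83034173-83052562, and Mfap5, chr6:122505845-122529290), 9 (Loxl1, chr9:58287738-58313186), 14 (Loxl2, chr14:69609068-69695834), 18 (Lox and Fbn2) and 19 (Loxl4, chr19:42593982-42612813). The spans of Eln, Fbn1, Fbn2, Lox, Loxl2 and Loxl3, introns included, overlap annotated genes of the opposite strand. Whether exons overlap was not looked at. No source used here gives the strand setting of the counting, so reads of such partners may be held in, or missing from, their counts.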

How the data were processed

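Total RNA of gastrocnemius from 12 mice was split into poly-A and small RNA libraries, 3 mice to a group. Per the labels and the study's methods, the authors demultiplexed with bcl2fastq 2.20, mapped the reads to GRCm38 with STAR 2.7.5c and deposited raw read counts per gene (STAR GeneCounts, Gencode M25) and per miRNA (featureCounts 2.0.1). Sequencing used no molecular identifiers, so intervals cover counting error only. The miRNA libraries held 1704531 to 3149396 counts. The 10 genes and the 17 other gene lists were chosen with earlier results of these data known.

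From the deposited counts, genes were kept by filterByExpr (minimum count 10, minimum total 15), scaled by TMM and fitted in edgeR 4.0.16 (R 4.3.3) with 4 group means over all 12 libraries of a kind. Quasi-likelihood tests were two-sided, p-values were adjusted by Benjamini and Hochberg across every gene tested, and SE is the log2 fold change over the root of F. The 5 comparisons share control groups, so their values are set side by side only. All 10 genes were described; from each other list up to 4 called genes per comparison, by smallest p, were named. Alternatives were DESeq2 1.42.0, other scalings, no filter, only the groups compared, the replicate number as a block, each library left out, and, chosen after seeing the data, DESeq2 without young burn replicate 2. Exon lengths, positions and 3′ untranslated regions came from Gencode M21 on the same build; 260 of 55401 gene identifiers had no symbol there. The tests were checked on simulated counts. Figures were drawn with matplotlib 3.10.9.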

Additional observations from a re-analysis of the deposited data

How the results depend on the processing

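Of the 10 genes, edgeR called 4 in YS against AS, with 5 called by DESeq2, 6 with no filter or with only these groups in the fit, and 1 to 6 when each library was left out (1 without adult sham replicate 2, 2 without young sham replicate 3 or adult sham replicate 1). Without adult sham replicate 2, Loxl2, Eln and Mfap2 had adjusted p-values of 0.0852, 0.103 and 0.0641. In YB against AB the count was 6, with 4 to 8 under the alternatives. In AB against AS it was 0, and 1 (Lox) with no filter, with only the adult groups or with DESeq2 without young burn replicate 2, and 0 to 1 when each library was left out. In YB against YS it was 0, and 1 (Lox, adjusted p = 0.000788) with no filter, and 0 to 1 when each library was left out, the 1 being Fbn2, lower without young burn replicate 1 (log2 -1.73, adjusted p = 0.0468). The 4 miR-29 calls in each age comparison were kept under every alternative run. DESeq2 gave Fbn2 no adjusted p in some comparisons, which are not counted as lost calls. The share of all genes called moves with the setting as well. In YS against AS it was 3.76% with 12 libraries and 11.8% without young burn replicate 2. For the other alternatives that share is not given, so their counts show only whether calls of the 10 genes were kept or added.

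Scaling by library size only moved the median of all genes by -0.144 in YS against AS, 0.237 in YB against YS, 0.108 in YB against AB and 0.251 in the interaction, with 4, 0, 6 and 0 of the genes called. Signs turned only for values that no setting called in that comparison. In YB against YS, library size only gave Loxl2 0.058, Loxl3 0.18 and Fbn1 0.21 (log2), only the groups compared gave Fbn1 0.00022, and DESeq2 without young burn replicate 2 gave Fbn1 0.18; in the interaction, library size only gave Loxl3 0.0587. When each library was left out, the lowest and highest values in AB against AS were -0.45 and 0.31 for Loxl4, -0.14 and 0.32 for Mfap2, -0.012 and 0.28 for Loxl3, -0.17 and 0.042 for Loxl1, -0.26 and 0.074 for Eln, and -0.41 and 0.0012 for Mfap5. They were -0.26 and 0.19 for Fbn1, -0.23 and 0.12 for Loxl3 and -0.0077 and 0.34 for Mfap5 in YB against YS, and -0.0397 and 0.25 for Loxl3 and -0.68 and 0.15 for Loxl4 in YB against AB. The cause was not tested.

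The replicate numbers did not pair the mice: of 18 correlations between same-numbered libraries of different groups, which ran from -0.197 to 0.153, 3 were over 0.1. With the replicate block 5 genes were called in YS against AS, 5 in YB against AB and 0 elsewhere. Depth limits Fbn2 and Loxl4, at 3 to 56 counts a group, and 3 mice a group limit the rest.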
